A study of Homo sapiens with 7 samples.

Results

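The extracellular matrix genes examined here are those of the collagens, the laminin chains, the integrin chains and fibronectin, followed through Dox-induced expression of the demethylase JMJD3c in human embryonic stem cells. The set was proposed with earlier results of these data known, and its genes were then taken by name, as every chromosomal row named for a numbered collagen alpha chain, a laminin alpha, beta or gamma chain, a numbered integrin chain, ITGAV or FN1. This gave 77 genes of the 22670 rows in each library, with 44 collagens, 12 laminins, 20 integrins and FN1. Chromosomal rows numbered 20187. The remaining 2483 rows, on alternate or patch sequences, were at 0 FPKM throughout, and 8 of them carry names of the set.

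The cells were SEES-3 hESCs, a line of human embryonic stem cells grown feeder-free in StemFit AK-03 medium. A piggyBac transposon gave them HA-tagged JMJD3c, the catalytic domain of the histone H3K27 demethylase JMJD3 (KDM6B), under a Tet-On promoter, and the cells also express the reverse Tet transactivator constitutively. Stable clones were selected with puromycin. JMJD3c-hESCs were collected without Dox (Day 0) and after 1, 2, 3 and 4 days with Dox at 1 µg/ml, and JMJD3c mut-hESCs, whose JMJD3c lacks catalytic activity, were collected untreated and, on Day 4, Dox-treated. All 7 conditions have 1 RNA-seq library, so the differences below could not be set against replicate error and none was given a p-value. The culture plates were coated with iMatrix-511, a recombinant fragment of laminin-511, so in every condition the cells stood on added laminin protein, which the RNA measurements do not show.

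Laminins are trimers of an alpha, a beta and a gamma chain that, with the type IV collagen network, form basement membranes. Fibronectin and the fibril-forming collagens make up much of the interstitial matrix. Integrins are the cell-surface receptors for these proteins, each a pair of an alpha and a beta chain, and the alpha chain largely sets the ligand. Human pluripotent stem cells attach to laminin-511 chiefly through integrin alpha 6 beta 1, and fibronectin with its receptor alpha 5 beta 1 is prominent in the mesoderm that forms at gastrulation.

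The targeted gene and cell type markers were checked first. KDM6B, whose row also takes the reads of the inserted domain, had 3.45 FPKM at Day 0, 158 to 282 FPKM with Dox, and 2.40 and 454 FPKM in the mutant line without and with Dox. All 7 markers fixed for pluripotent cells had a mean above 1 FPKM. Their summed level was lower at Day 4 (1618 FPKM) than at Day 0 (2295 FPKM). It was also lower in the mutant line with Dox (1854 FPKM) than without (2138 FPKM). The 8 mesendoderm markers summed to 5.49 FPKM at Day 0 and 310 FPKM at Day 4, against 10.9 and 7.83 FPKM in the mutant line. By the rule given below, 8 of the 8 were called up at Day 4 against Day 0. The paper names most of these 8 genes as upregulated in the same time course, so their calls are no independent check. Beside all marker calls here stand 2.98% of all rows called up and 3.84% called down at Day 4 against Day 0. Of the 7 pluripotent markers, 0 were called up and 2 down at Day 4 against Day 0. Mesenchyme and fibroblast markers were between 77.2 and 135 FPKM in sum (119 at Day 0, 135 at Day 4), with 5 of 8 at 0 at Day 0 and 2 of 8 at Day 4, and 1 was called up. Endothelial markers summed to 16.8 FPKM at Day 0 and 6.87 at Day 4, with 15.4 and 12.8 FPKM in the mutant line, and 1 was called down. Neural markers summed to 349 FPKM at Day 0 and 385 at Day 4, with 282 and 319 FPKM in the mutant line, and 2 were called up. Extraembryonic endoderm markers summed to 0.192 FPKM at Day 0 and 4.90 at Day 4, with 1.03 and 1.35 FPKM in the mutant line, and blood markers to 1.00 FPKM or less in every library, with no marker of either called. The part of these populations in the values below was not tested, and in bulk RNA a change in the number of cells of a type and a change in RNA per cell cannot be told apart. Depth, estimated from the steps that single reads leave among low values, was lowest at Day 0 (1850000 reads) and highest in the untreated mutant line (3800000 reads), and its absolute scale is uncertain by a factor of about 2.

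FPKM is scaled by transcript length, so levels can be set side by side between genes. Of the 77 genes, 46 had a mean above 1 FPKM over the 7 libraries, 29 a mean above 4 and 18 a mean above 10. The highest were the integrin beta chains ITGB1, with a mean of 143 FPKM, and ITGB5, with 121 FPKM, followed by FN1 at 55.5, COL18A1 and COL6A1 at 52.1 each, and LAMC1 at 51.2 FPKM. Another 31 genes (18 collagens, 10 integrins and 3 laminins) had a mean of 1 FPKM or less, and none of these exceeded 1.60 FPKM in any library. COL19A1, ITGA8, ITGB6 and LAMB4 were listed at 0 in all 7 libraries, where 3 reads would have given 0.0925 to 0.365 FPKM. Among the low genes was COL3A1, a major collagen of skin and vessel wall, listed at 0 in 6 libraries, with 0.102 FPKM in the mutant line without Dox.

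**Figure D1:**
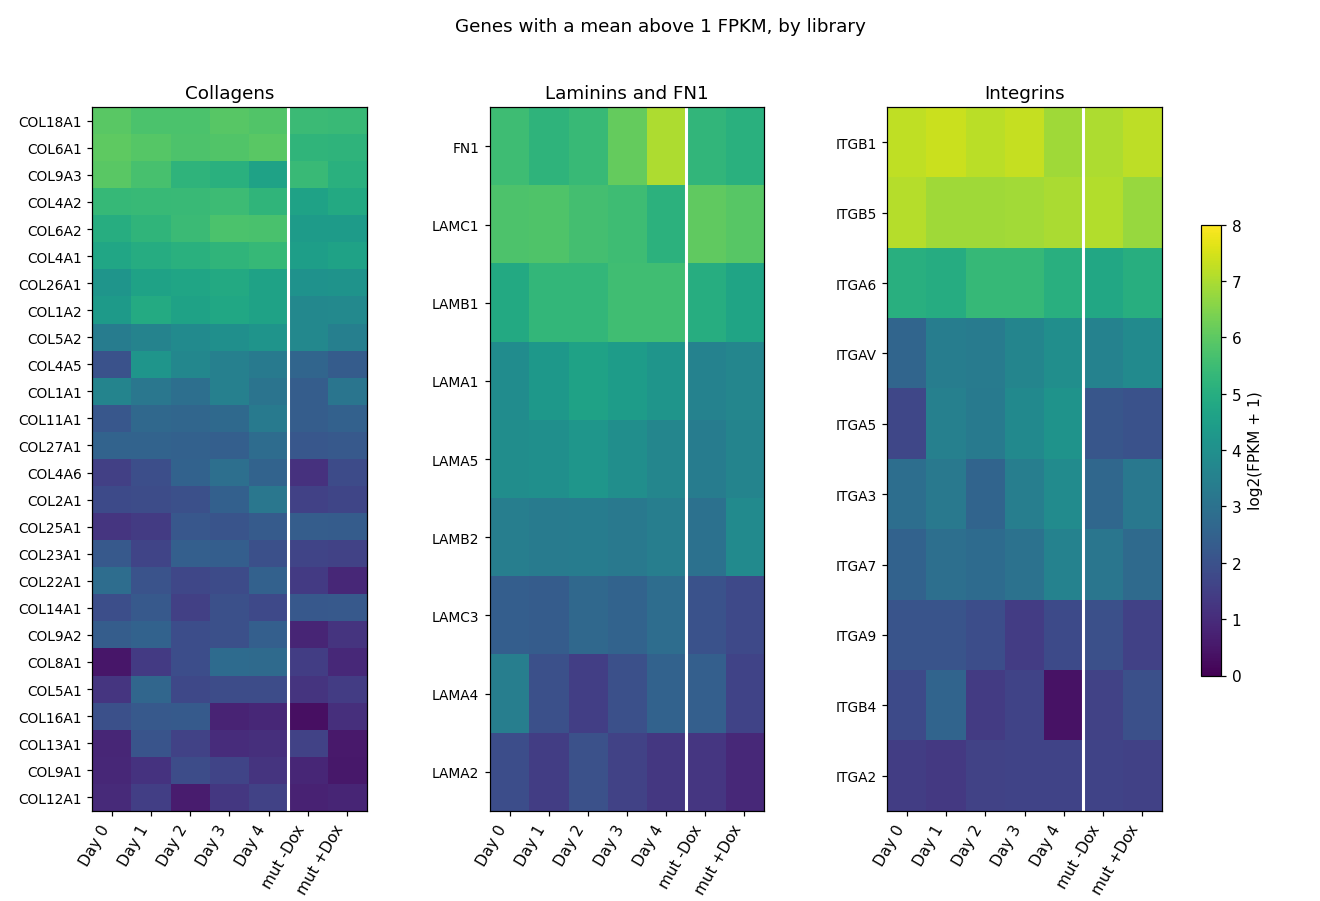
Level of 45 of the 46 genes with a mean above 1 FPKM, as log2(FPKM + 1) in colour, with 1 row per gene in order of mean level within each panel and 1 column per library. The white line separates the 5 JMJD3c-hESC libraries from the 2 of the mutant line, and FN1 and ITGA5 are brightest at Day 4.

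A gene was called up when its FPKM was more than 2 times that of the reference with more than 4 FPKM in the first library, and called down when it was below 0.5 of the reference with more than 4 FPKM there. Of the 77 genes, 10 were called up at Day 4 relative to Day 0 (13%), where 2.98% of all chromosomal rows were called up. They were FN1, the integrin alpha chains ITGA3, ITGA5, ITGA7 and ITGAV, and the collagens COL2A1, COL4A5, COL4A6, COL8A1 and COL11A1. For 6 of them (1.28% of all rows) the 95% intervals that Cufflinks gives for each library were also apart: COL2A1, COL8A1, COL11A1, FN1, ITGA5 and ITGAV. Called down were 2 genes, COL9A3 and LAMA4 (2.6%, against 3.84% of all rows), and the intervals were apart for COL9A3 alone (1.39% of all rows). The median log2 fold change over all 77 genes was 0.02, beside 0 for all rows. Over the 46 with a mean above 1 FPKM it was 0.25, beside -0.05 for all rows above that mean, with 28 genes higher and 18 lower.

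The 2 untreated libraries gave different answers for several genes. With the untreated mutant line as reference, 11 genes were called up at Day 4 (3.51% of all rows) and 0 were called down (1.94%). Against both untreated libraries at once, 7 were called up (1.72% of all rows): COL2A1, COL4A6, COL8A1, COL11A1, FN1, ITGA3 and ITGA5. When Day 4 also had to exceed the Dox-treated mutant line by the same rule, 4 of them passed (1.38% of all rows), namely COL2A1, COL8A1, FN1 and ITGA5. No gene was called down against both untreated libraries (0.832% of all rows). The untreated mutant line itself differed from Day 0, with 2 genes called up (COL25A1 and ITGAV, against 1.38% of all rows) and 4 called down (COL1A1, COL9A2, COL22A1 and LAMA4, against 3.49%).

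**Figure D2:**
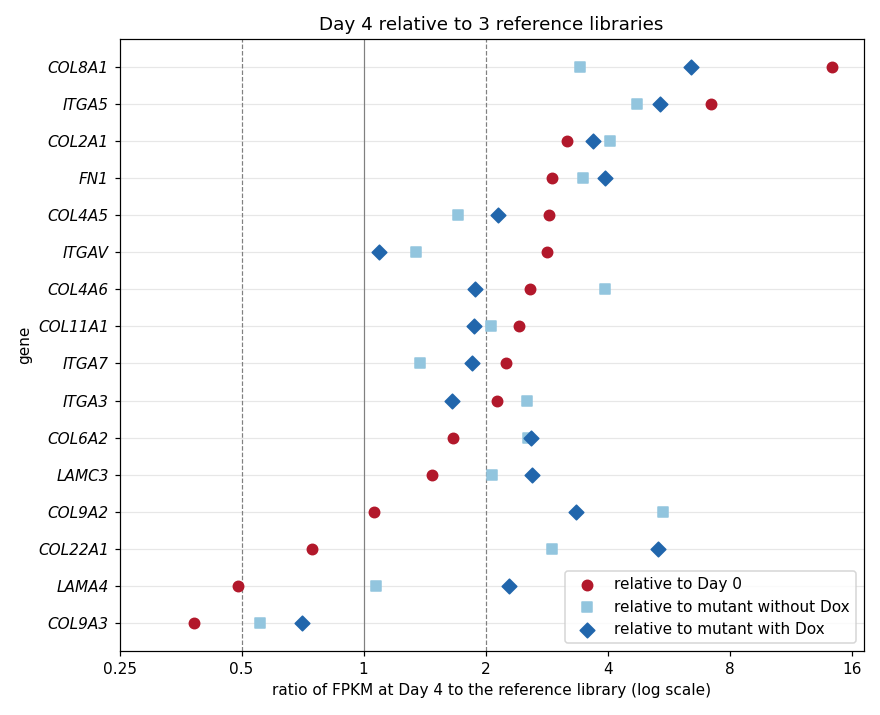
Ratio of the Day 4 FPKM to each of 3 reference libraries, on a log axis, for the 16 genes called in any of the 3 comparisons, with dashed lines at 0.5 and 2. COL8A1, ITGA5, COL2A1 and FN1 lie above 2 against all 3 references, while ITGAV is 2.84 against Day 0 and 1.09 against the mutant line with Dox.

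FN1 encodes fibronectin, the matrix glycoprotein that binds cells through its RGD motif. It lies on chromosome 2 (ENSG00000115414, hg19 chr2:216225163-216300895, minus strand). FN1 was listed at 44.4, 36.2, 40.5, 67.9 and 129.6 FPKM from Day 0 to Day 4, and at 37.2 and 32.9 FPKM in the mutant line without and with Dox. The Day 4 library was thus the highest of the 7, 2.92 times Day 0 and 3.94 times the Dox-treated mutant line, and its Cufflinks interval of 123 to 136 FPKM was apart from those of all other libraries. Day 1 and Day 2 did not exceed Day 0. The stretch upstream of the RefSeq start site of FN1 (GRCh38.p14, chr2:215436069-215436318, minus strand) is shown because FN1 was the most abundant gene called up, with capitals marking the letters TGACGTCA (the cAMP response element), CCAAT and GGGCGG on either strand.
FN1: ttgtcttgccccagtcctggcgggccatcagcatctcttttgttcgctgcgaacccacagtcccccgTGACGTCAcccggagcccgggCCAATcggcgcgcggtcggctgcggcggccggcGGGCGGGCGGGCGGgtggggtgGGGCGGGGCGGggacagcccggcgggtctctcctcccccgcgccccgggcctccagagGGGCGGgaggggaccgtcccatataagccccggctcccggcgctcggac
The letters of the cAMP response element end 175 bases before the start site, and CCAAT ends 157 bases before it. FN1 was the only 1 of the 56 genes with an entry in the RefSeq promoter table whose 250 upstream bases held TGACGTCA, which 1.65% of all 35116 promoters hold. A match in letters does not show that a factor bound there.

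ITGA5 and ITGAV, alpha chains of RGD-binding receptors, were both called up at Day 4 against Day 0 with intervals apart. ITGA5 pairs with beta 1 as the classical fibronectin receptor (ENSG00000161638, hg19 chr12:54789045-54813244, minus strand). The Day 0 value was 2.25 FPKM, with an interval of 0.397 to 5.03, and the later days had 10.1, 8.93, 12.8 and 16.2 FPKM. In the mutant line it was at 3.44 and 3.01 FPKM without and with Dox. Every library with active JMJD3c and Dox lay above all 3 libraries without Dox or without catalytic activity, and their intervals were apart from that of Day 0. The 250 bases upstream of its start site (GRCh38.p14, chr12:54419267-54419516, minus strand) are shown for comparison with FN1, in the same notation.
ITGA5: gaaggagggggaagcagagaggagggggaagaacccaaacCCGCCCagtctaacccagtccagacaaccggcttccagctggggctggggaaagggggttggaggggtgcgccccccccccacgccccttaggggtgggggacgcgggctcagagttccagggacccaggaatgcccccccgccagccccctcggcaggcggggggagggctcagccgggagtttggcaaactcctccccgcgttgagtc
They hold no cAMP response element or CCAAT letters and 1 GC box (GGGCGG on the reverse strand), 204 bases before the start.

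ITGAV, which pairs with beta 1, beta 5 and other beta chains in receptors for vitronectin and fibronectin, was listed at 5.13, 9.47, 8.99, 11.6 and 14.5 FPKM from Day 0 to Day 4. The mutant line had 10.8 FPKM without Dox and 13.3 FPKM with Dox. Day 0 was therefore the 1 low library, and the call at Day 4 (2.84 times Day 0, intervals apart) was not made against either mutant library, where the ratios were 1.35 and 1.09. ITGA8, the third RGD-binding alpha chain in the set, was at 0 throughout.

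Of the laminin-binding alpha chains, ITGA6 was the most abundant and differed little between the libraries. It was listed at 31.9, 29.8, 39.7, 40.5 and 32.0 FPKM over Days 0 to 4 and at 26.9 and 31.0 FPKM in the mutant line. ITGA3 was at 6.36, 8.41, 4.95, 9.63 and 13.6 FPKM, and at 5.40 and 8.24 FPKM in the mutant line. ITGA7, better known from muscle, was at 4.73, 6.60, 5.94, 7.01 and 10.7 FPKM, and at 7.75 and 5.77 FPKM in the mutant line. Both passed the ratio rule at Day 4 against Day 0 (2.14 for ITGA3 and 2.25 for ITGA7), but their Cufflinks intervals overlapped in that comparison. ITGA3 was called against the untreated mutant line (2.52, with overlapping intervals) but not against the Dox-treated one (1.65). ITGA7 was not called against either mutant library. The annotated span of ITGA7 overlaps METTL7B. With ITGA6 level and ITGA5 higher, the ratio of ITGA6 to ITGA5 was 14.2 at Day 0, 1.97 at Day 4, and 7.83 and 10.3 in the mutant line. The Day 0 ratio is imprecise, since ITGA5 was at 2.25 FPKM there with an interval of 0.397 to 5.03 FPKM.

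ITGB1, the common partner of alpha 3, alpha 5, alpha 6 and alpha 7, was listed at 150.2, 163, 144, 157 and 114 FPKM over the time course. It was at 128 and 147 FPKM in the mutant line. Its lowest value was thus at Day 4, 0.758 of Day 0 with overlapping intervals and 0.774 of the Dox-treated mutant line with intervals apart. ITGB5, the beta chain of a vitronectin receptor, lay between 107 and 136 FPKM in all 7 libraries. ITGB4, which with alpha 6 forms the hemidesmosomal receptor and overlaps GALK1, was called up at Day 1 (4.996 FPKM against 2.44 FPKM at Day 0) and had 0.307 FPKM at Day 4, with intervals that overlapped Day 0 on both days. Collagen-binding alpha chains were low: ITGA2 lay between 1.52 and 2.08 FPKM, ITGA1 between 0.428 and 1.32 FPKM, and the group of 4 summed to 2.72 to 3.38 FPKM in every library.

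Among the laminins, the beta 1 and gamma 1 chains went in opposite directions. LAMB1 was listed at 27.9, 38.0, 38.2, 45.8 and 46.1 FPKM over Days 0 to 4 and at 30.9 and 24.5 FPKM in the mutant line. LAMC1 was at 53.1, 54.1, 48.0, 44.7 and 33.9 FPKM, and at 64.5 and 60.1 FPKM in the mutant line. For both genes the Day 4 interval was apart from those of Day 0 and both mutant libraries, at ratios to Day 0 of 1.65 and 0.639 that did not reach the fold of 2. The ratio of LAMB1 to LAMC1 was 0.526, 0.703, 0.796, 1.02 and 1.36 from Day 0 to Day 4, and 0.479 and 0.408 in the mutant line without and with Dox. These chains are also those of the laminin-511 that coated the plates.

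LAMC3, another gamma chain, was lower. It was listed at 4.26, 3.98, 5.57, 4.85 and 6.295 FPKM over the time course, and at 3.03 and 2.42 FPKM in the mutant line, and was called up at Day 4 against both mutant libraries with intervals apart, though not against Day 0.

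LAMA1, the alpha chain of the laminin of the early embryo, was at 13.7, 18.2, 23.2, 20.3 and 17.0 FPKM over Days 0 to 4 and at 10.7 and 11.8 FPKM in the mutant line. LAMA5, the alpha chain of laminin-511, was at 14.0, 14.8, 17.3, 14.5 and 11.6 FPKM, and at 9.37 and 11.3 FPKM in the mutant line. Both were highest at Day 2, and neither was called at Day 4. LAMA4, an alpha chain of blood vessel laminins, was called down at each day with Dox, at 9.65, 2.84, 1.83, 2.86 and 4.72 FPKM, with 4.42 and 2.06 FPKM in the mutant line. Its Day 0 interval ran from 0.949 to 21.9 FPKM and overlapped that of every later day, its Day 4 ratio of 0.490 lay just under the cutoff, and relative to the untreated mutant line the Day 4 ratio was 1.07. LAMB2 lay between 6.86 and 13.1 FPKM and had its highest value in the Dox-treated mutant line.

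Collagen IV, the network collagen of basement membranes, is encoded by 6 genes that lie in 3 head-to-head pairs. COL4A1 and COL4A2, whose chains form the widespread form of the network, overlap by 1338 bases in the annotation used for the files (hg19 chr13:110801318-110959496 and chr13:110958159-111165374), so reads in that stretch could be assigned to either where strand was not used. COL4A1 was listed at 25.7, 29.8, 33.1, 36.3 and 39.6 FPKM over the time course and at 21.5 and 23.2 FPKM in the mutant line. COL4A2 was at 39.7, 40.6, 41.8, 44.1 and 36.8 FPKM, and at 23.2 and 28.1 FPKM in the mutant line. COL4A1 at Day 4 was 1.54 times Day 0 with intervals apart, while COL4A2 was at 0.928 of Day 0 with overlapping intervals. Relative to each mutant library, both genes were higher at Day 4 with intervals apart. The 126 bases between their RefSeq start sites (GRCh38.p14, chr13:110307158-110307283, plus strand, read towards COL4A2) are shown because the genes share this stretch and yet differed in ratio, with capitals for CCAAT and GGGCGG.
COL4A1-COL4A2: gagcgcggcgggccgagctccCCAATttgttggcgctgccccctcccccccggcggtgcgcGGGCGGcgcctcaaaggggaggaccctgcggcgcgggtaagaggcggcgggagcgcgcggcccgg
The stretch holds 1 CCAAT box and 1 GC box, and 80.2% of its bases are G or C.

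COL4A5 and COL4A6, the pair on the X chromosome (hg19 chrX:107683112-107940775 and chrX:107386780-107682702), were both called up at Day 4 but had their highest listed values on different days. COL4A5 had 3.05, 16.9, 11.9, 10.3 and 8.72 FPKM from Day 0 to Day 4, with 5.09 and 4.07 FPKM in the mutant line. COL4A6, whose annotated span overlaps ATG4A, was at 1.85, 2.77, 4.78, 6.62 and 4.78 FPKM, and at 1.22 and 2.55 FPKM in the mutant line. The highest value of COL4A5 was thus at Day 1 and that of COL4A6 at Day 3. The Day 1 interval of COL4A5 overlapped those of Days 2, 3 and 4. The Day 3 interval of COL4A6 overlapped those of Days 2 and 4. At Day 4 the ratios to Day 0 were 2.86 and 2.58, with intervals that overlapped for both genes. Against the untreated mutant line, COL4A6 was called up (3.93, intervals apart) and COL4A5 was not (1.71). Their start sites are 379 bases apart, and the 250 bases upstream of COL4A6 (GRCh38.p14, chrX:108439459-108439708, minus strand) are shown with CCAAT in capitals on either strand.
COL4A6: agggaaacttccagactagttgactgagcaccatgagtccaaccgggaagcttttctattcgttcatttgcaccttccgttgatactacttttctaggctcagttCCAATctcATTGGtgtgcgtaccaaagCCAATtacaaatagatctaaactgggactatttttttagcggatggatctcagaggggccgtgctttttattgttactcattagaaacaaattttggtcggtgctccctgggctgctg
These hold CCAAT letters 3 times, and the first and second of them, 140 and 132 bases before the COL4A6 start, also fall within the 250 bases upstream of COL4A5. COL4A4 and COL4A3, the third pair, lie 418 bases apart by start site and had no library above 0.774 and 0.260 FPKM respectively.

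Of the fibril-forming collagens, COL2A1 and COL11A1, both of cartilage and notochord fibrils, were called up at Day 4 with intervals apart. COL2A1 (ENSG00000139219, hg19 chr12:48366748-48398269) was listed at 2.50, 2.62, 2.91, 4.45 and 7.92 FPKM, higher at each successive day, with 1.95 and 2.15 FPKM in the mutant line. COL11A1 was at 3.54, 5.58, 5.21, 5.63 and 8.57 FPKM, and at 4.17 and 4.59 FPKM in the mutant line. For COL2A1 the Day 4 value was 3.17 times Day 0 and 3.68 times the Dox-treated mutant line, and for COL11A1 it was 2.42 and 1.87 times. The chains of type I collagen, the main collagen of bone and tendon, were not called at Day 4 against Day 0 or either mutant library. COL1A2 was at 19.4, 28.4, 23.4, 26.0 and 23.2 FPKM, and at 12.5 FPKM in both mutant libraries. Its Day 4 interval was apart from those of both mutant libraries, at ratios of 1.86 without and 1.85 with Dox. COL1A1 was at 11.3, 8.10, 6.56, 10.3 and 7.42 FPKM, and at 4.18 and 7.54 FPKM in the mutant line. COL5A2, which helps nucleate type I fibrils, was at 9.24, 11.1, 13.2, 14.7 and 16.5 FPKM, 1.78 times Day 0 at Day 4 with intervals apart, and at 12.3 and 9.94 FPKM in the mutant line.

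COL9A3, a chain of the fibril-associated collagen IX, was the 1 gene of the set that was lower at each successive day. It was listed at 61.3, 49.9, 36.0, 33.0 and 23.4 FPKM, a Day 4 ratio of 0.381 with intervals apart, and at 42.1 and 33.1 FPKM in the mutant line. Both mutant libraries therefore lay between Day 0 and Day 4, with intervals above that of Day 4 at ratios of 0.555 and 0.705. The annotated span of COL9A3 overlaps TCFL5. COL9A2, a partner chain in collagen IX, was at 4.08, 4.72, 2.68, 2.84 and 4.31 FPKM, with 0.788 and 1.29 FPKM in the mutant line. COL22A1 was at 6.19, 3.16, 2.25, 2.58 and 4.63 FPKM, with 1.59 and 0.871 FPKM in the mutant line. Both were called up at Day 4 against the mutant libraries but not against Day 0, and their intervals overlapped in all of these comparisons.

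Collagen VI forms beaded filaments around cells from 3 chains. COL6A1 was listed at 63.9, 58.9, 54.0, 55.2 and 60.8 FPKM over the time course, and at 36.3 and 35.6 FPKM in the mutant line. COL6A2, its neighbour on chromosome 21, was at 30.8, 36.5, 42.7, 52.6 and 51.2 FPKM, with 20.2 and 19.8 FPKM in the mutant line. Both were lower in the mutant line than in every JMJD3c library. COL6A2 at Day 4 was 1.66 times Day 0 and 2.54 and 2.59 times the mutant libraries, each with intervals apart, so that it was called against the mutant line only. COL6A3, the chain that completes the classical trimer, lay between 0.287 and 1.27 FPKM.

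COL8A1, a short-chain network collagen of vessel and corneal membranes, had the highest Day 4 ratio among the genes called, 14.3 against Day 0. It was listed at 0.408, 1.57, 2.70, 5.95 and 5.83 FPKM, and at 1.71 and 0.907 FPKM in the mutant line. The Day 0 value rests on few reads, since 3 reads would have given 0.295 FPKM, and its interval ran from 0 to 2.68 FPKM. Relative to the mutant libraries the ratios were 3.41 and 6.43, again with intervals apart. The basement membrane collagen COL18A1, the source of endostatin, lay between 41.6 and 61.2 FPKM, and COL26A1 between 16.03 and 27.7 FPKM, with no call in any comparison at Day 4.

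**Figure D3:**
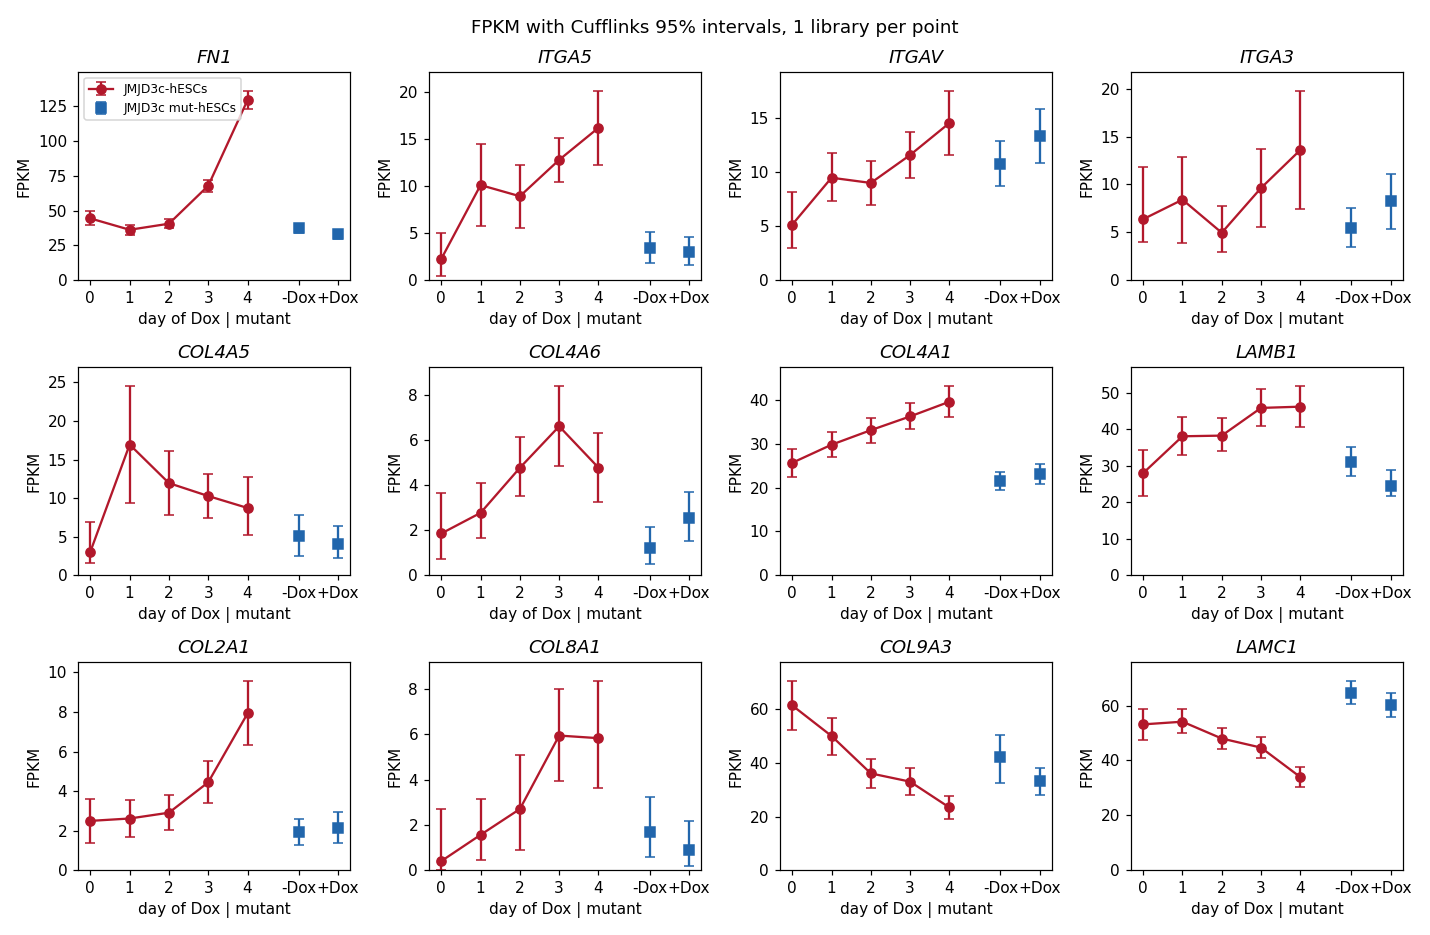
FPKM of 12 genes in each library, with bars for the Cufflinks 95% interval of that library, which is not a spread between cultures. Red circles are JMJD3c-hESCs by day of Dox and blue squares the mutant line without and with Dox, and each panel has its own axis from 0. FN1 is highest at Day 4 (129.6 FPKM), COL4A5 at Day 1 (16.9 FPKM) and COL4A6 at Day 3 (6.62 FPKM). The bars of COL4A5 at Day 1 and of COL4A6 at Day 3 overlap those of Days 2 and 4.

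The earlier days gave fewer calls. Relative to Day 0, 4 genes were called up at Day 1 (1.76% of all rows), 3 at Day 2 (1.97%) and 5 at Day 3 (2.4%). They were COL4A5, COL5A1, ITGA5 and ITGB4 at Day 1, COL4A5, COL4A6 and ITGA5 at Day 2, and COL4A5, COL4A6, COL8A1, ITGA5 and ITGAV at Day 3. ITGA5 and COL4A5 were called up at all 4 days, and FN1, COL2A1, COL11A1, ITGA3 and ITGA7 at Day 4 only. LAMA4 was called down at Day 1 (1.65% of all rows), and LAMA4 with COL22A1 at Day 2 (2.14%) and Day 3 (2.28%). A higher value at each successive day from Day 0 to Day 4 was seen in 5 genes, among them COL2A1, COL4A1, COL5A2 and LAMB1, where 2.12% of all rows had such an order, and a lower value at each day in COL9A3 (2.28% of all rows). All of these comparisons share the Day 0 library, the shallowest of the 7.

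In the mutant line, Dox gave 0 genes called up (0.604% of all rows) and 1 called down, LAMA4 (0.738%), whose intervals overlapped. The cutoffs call few rows of any kind in this comparison. The median log2 fold change over the 77 genes was 0, as over all rows. No gene of the 77 had intervals apart, in either direction (0.758% of all rows were higher and 1.02% lower with intervals apart). FN1 had a log2 fold change of -0.17 here and 1.53 at Day 4 in JMJD3c-hESCs, and ITGA5 had -0.14 and 2.40. COL8A1 had -0.51 and 2.28, while COL2A1 had 0.10 and 1.35. The difference between the lines was not tested, with 1 library at each point. Day 4 and the Dox-treated mutant line both received Dox, and 10 genes were called up between them (3.25% of all rows) and 0 down (1.49%): COL2A1, COL4A5, COL6A2, COL8A1, COL9A2, COL22A1, FN1, ITGA5, LAMA4 and LAMC3. These libraries differ in cell line as well as in catalytic activity, which cannot be told apart.

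**Figure D4:**
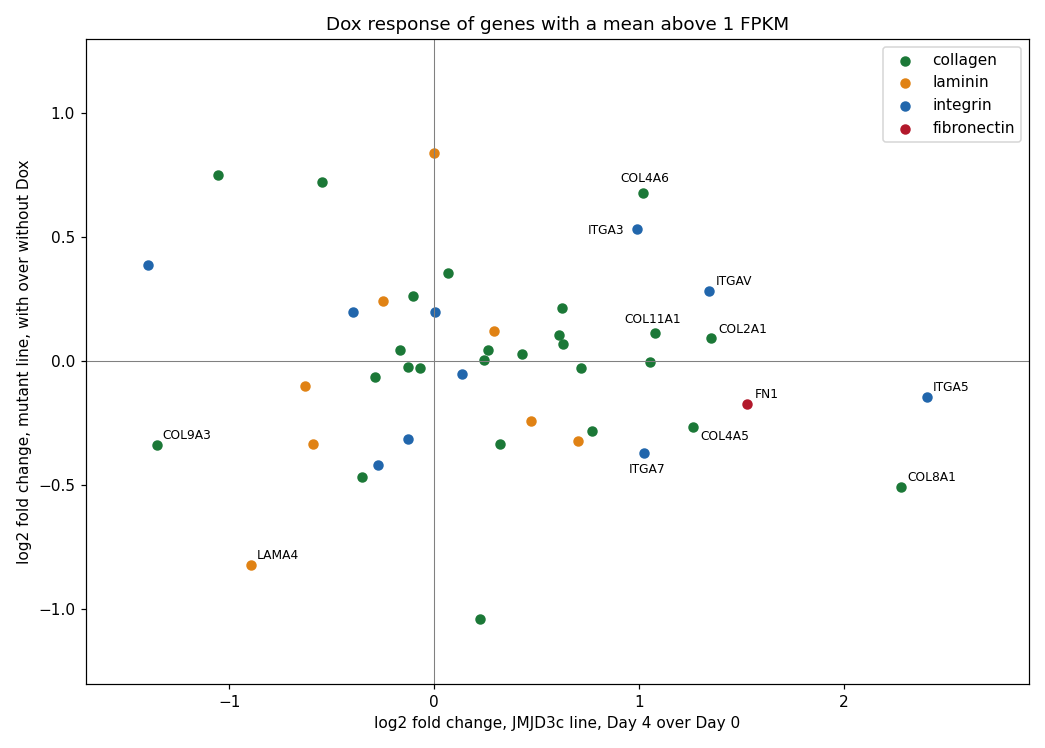
Log2 fold change with Dox, after adding 1 to each FPKM, in JMJD3c-hESCs (Day 4 over Day 0, horizontal) and in the mutant line (with over without Dox, vertical), 1 point for each of 45 genes with a mean above 1 FPKM. The names are those of the genes called at Day 4 against Day 0, and among them ITGA5 and COL8A1 lie farthest right, at 2.40 and 2.28, with mutant values of -0.14 and -0.51.

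The partners of these proteins outside the name rule were taken from lists of matrix and adhesion genes. At Day 4 against Day 0, 2.98% of all rows were called up and 3.84% down, the background for the counts that follow. Of 24 other matrix proteins, 2 were called up and 0 down, and both were also called up against the untreated mutant line (1.72% of all rows were called up against both). TNC, the adhesion-modulating protein tenascin C, was listed at 0.205, 0.873, 2.87, 8.43 and 24.6 FPKM, with 0.697 and 0.569 FPKM in the mutant line. FBN2, a microfibril protein, was at 11.0 FPKM at Day 0 and 30.4 FPKM at Day 4, with 14.0 and 10.6 FPKM in the mutant line. Both had the highest of their 7 values at Day 4.

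Among 20 matrix proteases and inhibitors, 5 were called up and 2 down at Day 4 against Day 0, beside the 2.98% and 3.84% of all rows. Those called up against both untreated libraries included the inhibitors SERPINE2 (29.3 FPKM at Day 0, 162 at Day 4 and 29.1 in the untreated mutant line) and TIMP1 (17.9, 59.0 and 16.05 FPKM), and the gelatinase MMP2 (17.8, 42.9 and 20.4 FPKM). MMP24, a membrane-bound protease, was called down against both (8.68, 2.83 and 6.86 FPKM). Of 24 genes for collagen modification and secretion, 0 were called up and 3 down against Day 0, beside the same 2.98% and 3.84%. P4HA1, a subunit of the prolyl hydroxylase that stabilises the collagen helix, was called down against both untreated libraries (33.4, 12.7 and 25.7 FPKM) and had 14.5 FPKM in the Dox-treated mutant line. Of 22 cytoplasmic adhesion proteins 1 was called up and 1 down, of 6 further integrin chains 0 and 1, and of 9 non-integrin matrix receptors 0 and 0.

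RefSeq promoters (GRCh38.p14, 250 bases upstream of the start site) were found for 56 of the 77 genes, 30 with a mean above 1 FPKM and 26 at or below it. The expressed genes had a median GC content of 70.2% and a median of 21.5 CpG, against 60.6% and 10.5 CpG for the others and 58% and 11 CpG for all promoters. All promoters means every entry, whatever the expression of its gene, while each of the 56 genes was given 1 entry. No value was calculated for expressed genes outside the set, so whether the difference is particular to this set was not tested. Searched on both strands, GGGCGG was found in 55.4% of the 56 promoters and in 42.6% of all 35116. CCAAT was found in 23.2% of the 56 and 32.0% of all, and TATAAA in 10.7% of each. The T-box letters TCACACC was in 2 of the 56 (2.76% of all), the forkhead letters TGTTTAC in 0 (2.98% of all), the GATA letters AGATAA in 4 (9.17% of all) and the AP-1 letters TGANTCA in 1 (6.57% of all). Of the genes called up at Day 4 against Day 0, only COL4A5, COL4A6, COL11A1, FN1, ITGA5 and ITGAV have an entry. Neither T-box nor forkhead letters were seen in their promoters. At 2.76% and 2.98% of all promoters, such letters would seldom be seen in so few, so nothing follows from their absence. These shares describe letters in a short window and say nothing about the factors.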

How the data were processed

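RNA-seq was carried out on poly(A) RNA from 7 samples, with 1 library per condition. Per the labels, the authors made directional libraries, sequenced them as single-end reads on a MiSeq, processed them with CASAVA 1.4, mapped them to hg19 with TopHat 2.0.13 and estimated expression with Cufflinks 2.1.1. The values the authors deposited are FPKM per gene with the lower and upper bounds of the Cufflinks 95% interval, also in FPKM. The annotation release and the strand setting of Cufflinks are not given in the sources used here. The bounds describe the estimate in 1 library.

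From these values, FPKM ratios were calculated over all 20187 chromosomal rows, and the calls of the 77 genes were read from that table. For log2 fold changes, a pseudocount of 1 was added to both FPKM values, which understates the change of low genes. Nothing was tested, since no condition has a replicate. The members and gene lists were chosen with earlier results of these data known. Values are given per library for genes called at Day 4 or in the mutant line, for up to 3 of the most abundant genes of each role, and for a short list of basement membrane and receptor genes, and the values of some genes are not reported here. The relative depth of each library was estimated from the commonest ratio of its low FPKM values to those at Day 2. The common absolute scale came from 867 single-exon genes, taking each transcript as 200 bases shorter. Floors of 3 reads cover counting error only. Promoter letters were taken from RefSeq. Calculations were made with Python 3.11.15, numpy 2.4.6, pandas 2.3.3 and matplotlib 3.10.9 and tested on simulated data.

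The alternatives changed the FPKM cutoff, the fold, the pseudocount, the scaling, the use of intervals, the rows included, the treated library and the untreated reference.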

Additional observations from a re-analysis of the deposited data

Results flagged for a closer look

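Of the 10 genes called up at Day 4 in JMJD3c-hESCs, 5 were lower with Dox than without in the mutant line, a sign opposite to that at Day 4, and the other 5 were higher. Over the 46 genes with a mean above 1 FPKM, 23 were higher and 23 lower with Dox in that line, the same even division. Among the 5 that were lower, the log2 fold change in the mutant line was -0.26 for COL4A5, -0.51 for COL8A1, -0.17 for FN1, -0.14 for ITGA5 and -0.37 for ITGA7. Among the 5 that were higher it was 0.68 for COL4A6, 0.53 for ITGA3, 0.28 for ITGAV, 0.11 for COL11A1 and 0.10 for COL2A1. For all 10 the Cufflinks intervals of the 2 mutant libraries overlapped. The difference between the lines was not tested, since each line has 1 library with and 1 without Dox.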

How the results depend on the processing

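With 1 library per condition, a call depends on the cutoffs and on the untreated library. The share of all rows called at a cutoff of 1 or 10 FPKM, at a fold of 1.5 or after rescaling is not given. Counts at those settings show how the calls depend on them and are no result about these genes. At Day 4 against Day 0, the 10 genes called up and 2 called down became 5 up and 1 down at a cutoff of 10 FPKM and 6 up and 1 down where intervals had to be apart. Called down were 5 at a cutoff of 1 FPKM, 4 at a fold of 1.5, 1 after rescaling by the median ratio, 0 with the untreated mutant line as reference and 0 when called against both untreated libraries, a comparison chosen after seeing the data. Called up were 15 at a cutoff of 1 FPKM, 15 at a fold of 1.5 and 5 with Day 3 as the treated library. At Days 1, 2 and 3, the 5, 5 and 7 genes called in either direction became 10, 14 and 15 at a cutoff of 1 FPKM, 2, 1 and 3 at 10 FPKM, and 8, 10 and 16 at a fold of 1.5. At Days 1 and 2, 2 and 2 genes were called with intervals apart, all of them up, beside 0.347% and 0.594% of all rows. In the mutant line, 0 up and 1 down became 3 up and 3 down at 1 FPKM and 3 up at a fold of 1.5, and the count of genes called down was 0 at 10 FPKM or with intervals apart. At Day 4 against the Dox-treated mutant line, 10 up and 0 down became 16 up and 3 down at 1 FPKM and 3 up at 10 FPKM. They became 20 up and 1 down at a fold of 1.5, and 6 up with intervals apart (1.62% of all rows). The median log2 fold change over the 77 genes was 0.02 at Day 4 against Day 0, 0.25 over those with a mean above 1 FPKM and 0.28 with the untreated mutant line as reference. Against the Dox-treated mutant line it was 0.26, 0.51 at a pseudocount of 0.1, 0.10 at a pseudocount of 4 and 0.51 over those with a mean above 1 FPKM. Of the 36 genes named with their values, several changed sign with the untreated mutant line as reference. LAMA4 had 0.080 in place of -0.90, COL1A1 0.70 in place of -0.55, and COL22A1 1.12 in place of -0.35. COL4A2 had 0.64 in place of -0.11, COL6A1 0.73 in place of -0.07, and COL18A1 0.39 in place of -0.13. LAMA5 had 0.28 in place of -0.25, and LAMB2 0.44 in place of -0.002. Apart from LAMA4, 10 genes were counted as moved under that reference, among them FN1, at 1.77 in place of 1.53. COL1A1, COL22A1 and LAMB2 were not among them although they changed sign. That count therefore follows neither the sign nor the size of a change. Rescaling moved the median of all genes by less than 0.1 on the log2 scale. No paired analysis was possible because no condition has a second library. Day 0 was the shallowest library, and genes near 1 FPKM rest on few reads there. The causes of these changes were not tested.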
